A study of Mus musculus with 26 samples.

Results

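The core pluripotency genes described here are Pou5f1 (which encodes Oct4), Sox2, Sall4, Lin28a, Utf1, Trim28, Zfp281 and Nr0b1 (which encodes Dax1). These 8 genes, of 54589 in all tables, were chosen by name, with earlier results of these data known. All 8 have a row in the tables of cultured cells, and 7 have one in the testis table; Sox2 in testis was not analysed here.

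The study concerns Tex10, a nuclear protein, in the specification of primordial germ cell-like cells (PGCLCs) from epiblast-like cells (EpiLCs) and in spermatogenesis, and measured RNA in 26 mouse samples. The first experiment used 129Sv/J cells in 5 groups of 2 libraries: EpiLCs labelled untreated, and PGCLCs at day 2 and at day 4 given either the solvent DMSO or dTAG13 (500 nM), a small molecule that directs a tagged protein to degradation. The second used 129Sv/J cells labelled untreated: 1 line with an empty vector and 2 clones overexpressing Tex10, each sampled once as EpiLCs and at days 2, 4 and 6. The third compared testes of 2 wildtype and 2 Tex10 conditional knockout (cKO) mice on C57BL/6N. The tag of the first experiment, the promoter of the vectors, the Cre line of the cKO and the age of the mice are not given in the sources used here. EpiLCs and DMSO-treated PGCLCs differ in solvent as well as in stage, and the overexpression groups rest on 3 lines in all. Nothing states that libraries of a group came from separate cultures, so p-values measure the spread between these samples, which may be technical.

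Oct4 and Sox2 bind DNA together and maintain the undifferentiated state of the early embryo and of pluripotent stem cells; Oct4 is also kept in the germ line. Germ cell specification passes through an epiblast-like state, from which PGCs regain part of the pluripotency programme. Sall4, Zfp281, Utf1 and Nr0b1 act on chromatin or transcription in the same network, Lin28a binds RNA and blocks maturation of let-7 microRNAs, and Trim28 is a corepressor that brings H3K9 methylation to transposons and imprinted loci.

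In GENCODE M21 on mm10 the genes lie at chr17:35506018-35510772 (Pou5f1, plus strand), chr3:34650405-34652461 (Sox2, plus), chr2:168748332-168767943 (Sall4, minus), chr4:134003330-134018841 (Lin28a, minus), chr7:139943789-139945112 (Utf1, plus), chr7:12999114-13031035 (Trim28, plus), chr1:136624901-136630053 (Zfp281, plus) and chrX:86191764-86195947 (Nr0b1, plus).

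Of the 8 genes, only Pou5f1, Nr0b1 and Trim28 passed the test as lower with dTAG13 on both days under every alternative tried. The 250 bases upstream of their RefSeq start sites (GRCm38.p6) are therefore shown. Of the 8 genes, 7 matched an entry of the RefSeq promoter table, all but Sall4. Each sequence is given 5′ to 3′ on the plus strand, which is the gene's strand, and capitals mark matches on either strand to any of 5 motifs.
Pou5f1, chr17:35505782-35506031: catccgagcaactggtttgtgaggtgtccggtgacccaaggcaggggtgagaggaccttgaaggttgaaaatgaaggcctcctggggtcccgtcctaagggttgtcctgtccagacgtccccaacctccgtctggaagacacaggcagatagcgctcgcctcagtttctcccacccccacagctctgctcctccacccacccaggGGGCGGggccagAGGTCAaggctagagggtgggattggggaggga
Nr0b1, chrX:86191525-86191774: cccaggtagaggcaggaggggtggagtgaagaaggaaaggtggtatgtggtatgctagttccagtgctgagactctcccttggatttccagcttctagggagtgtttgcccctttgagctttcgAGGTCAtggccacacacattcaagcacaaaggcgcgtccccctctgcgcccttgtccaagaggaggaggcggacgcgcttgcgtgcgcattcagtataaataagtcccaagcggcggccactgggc
Trim28, chr7:13023902-13024151: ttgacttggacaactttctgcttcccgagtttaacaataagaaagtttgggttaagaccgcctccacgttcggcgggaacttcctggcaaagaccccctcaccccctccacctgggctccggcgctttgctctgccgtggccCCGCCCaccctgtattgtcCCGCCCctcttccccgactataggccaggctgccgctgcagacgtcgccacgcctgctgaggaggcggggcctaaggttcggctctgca
The 5 motifs were the octamer bound by Oct4 (ATGCAAAT, in 1.6% of 32851 windows of this length), the Sox core (ACAATG, 10.7%), the nuclear receptor half-site (AGGTCA, 14%), the same half-site with its 5′ extension (TCAAGGTCA, 0.387%, which contains the shorter half-site) and the GC box (GGGCGG, 32.7%). The Pou5f1 window held a GC box 45 to 40 bases upstream of the start and a half-site 33 to 28 bases upstream. The Nr0b1 window held a half-site 126 to 121 bases upstream. The Trim28 window held GC boxes on the opposite strand, at 108 to 103 and at 89 to 84 bases upstream. It lies within the GENCODE interval of Trim28 given above, which begins further upstream than this RefSeq start. None of these windows matched the octamer, the Sox core or the extended half-site, which says only that these letters are not in these windows. Pou5f1 has another RefSeq start further downstream, whose window is not printed and held a Sox core 158 to 153 bases upstream.

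Values are CPM computed over library sizes that carry the authors' TMM factors, and are called TMM-scaled CPM. Reads in the tables ran from 5055362 to 8564563 per library in the dTAG13 experiment, 5227287 to 7484600 in the overexpression experiment and 6058987 to 7272313 in testis. Tex10 mRNA in the dTAG13 experiment was 106 and 113 with DMSO against 104 and 94.0 with dTAG13 at day 2, and 109.5 and 105 against 76.8 and 72.8 at day 4. Since dTAG13 acts on protein, its mRNA does not check the depletion. In the overexpression experiment, Tex10 was 145 to 213 in the empty-vector line and 329.8 to 654 in the clones, and in testis it was 79.1 and 44.1 in wildtype against 29.8 and 27.3 in cKO. EpiLC markers (Fgf5, Pou3f1, Otx2, Dnmt3b) fell in 4 of 4 cases from EpiLC to day 2, and 4 of 6 PGCLC markers rose, in both experiments. Of all genes, 14.7% fell and 11.5% rose at that step in the dTAG13 experiment. In the overexpression experiment 22.1% fell and 24.1% rose. Replicates differed most between the day 4 DMSO libraries, with a chi-square of 15.1 per gene against 3.56 to 5.23 in the other groups of that table. Xist, which coats the inactive X, was 129 and 138 in EpiLCs, 1.72 to 5.41 in the DMSO libraries and 94.2 to 253 in the dTAG13 libraries, so the groups compared below stand apart on it as well.

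Per kilobase of exon, mean TMM-scaled CPM in EpiLCs of the dTAG13 experiment was highest for Utf1 (475) and lowest for Nr0b1 (37.8). Between them stood Trim28 (227), Sox2 (188), Pou5f1 (160.3), Sall4 (133.5), Lin28a (122) and Zfp281 (71.2), and only Sall4 and Lin28a had overlapping libraries. By day 4 with DMSO, Sox2 (249) and Utf1 (208) headed the order with overlapping libraries. Nr0b1 (37.1) remained lowest, below Lin28a (43.6) and Zfp281 (50.6).

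Along induction with DMSO, Lin28a, Utf1, Trim28 and Zfp281 fell, Sox2 rose by day 4, and Pou5f1, Sall4 and Nr0b1 passed no test in the reported fit. Under quantile normalization Sall4 passed from EpiLC to day 2 (0.43, against 0.09 as reported, limma adjusted p = 0.0027). It also turned direction and passed from EpiLC to day 4 (0.35, against -0.06, limma adjusted p = 0.00888). From EpiLC to day 2, 4 of 8 genes passed the test (limma, Benjamini-Hochberg adjusted p under 0.05), all lower, against 26.2% of the 16605 genes tested. From day 2 to day 4 only Lin28a passed, as lower, against 5.52% of all genes and 3.08% that passed as lower. From EpiLC to day 4, 5 of 8 passed, 1 higher and 4 lower, against 34.9% of all genes, with 18.1% passing as lower.

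Lin28a fell at each step. It was 449 and 523 TMM-scaled CPM in EpiLCs, 291 and 303 at day 2 and 182 and 166 at day 4 with DMSO. No library of a later stage overlapped one of an earlier stage, and the log2 change was -0.71 ± 0.10 (SE, n = 2 per group) for the first step (limma adjusted p = 1.93e-05) and -0.77 ± 0.10 for the next (adjusted p = 4.46e-05). Day 4 cells held 35.9% of the EpiLC level.

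Utf1, a chromatin-bound factor of undifferentiated cells, had its fall within the first 2 days. It was 555 and 611 in EpiLCs, 279 and 266 at day 2 and 274 and 237 at day 4, with a first step of -1.09 ± 0.10 (limma adjusted p = 6.93e-08). The day 2 and day 4 libraries overlapped. Trim28 was 885 and 1006 in EpiLCs, 523 and 601 at day 2 and 618 and 702 at day 4. Its first step was -0.75 ± 0.11 (adjusted p = 3.58e-05), and its day 4 libraries lay above those of day 2 without passing the test (log2 0.23, adjusted p = 0.286). Zfp281, a zinc finger factor of the formative and primed states, went from 351 and 352 to 249 and 246 at day 2, and was 261 and 239 at day 4. Its first step was -0.50 ± 0.10 (adjusted p = 0.000563). Under quantile normalization that step was -0.24 (adjusted p = 0.0673), and the change of Trim28 from EpiLC to day 4 was -0.12 (adjusted p = 0.439, against -0.52 and 0.00121), so neither passed. The first steps of Lin28a (-0.42), Trim28 (-0.39) and Sox2 (0.58) also moved by over 1.5 times under quantile normalization, and each passed.

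Pou5f1 passed at no step: it was 356 and 365 in EpiLCs, 339 and 302 at day 2 and 357 and 299.9 at day 4. Both day 2 libraries lay below both EpiLC libraries, with a change of -0.17 and a 95% interval from -0.39 to 0.05. The EpiLC and day 4 libraries overlapped, with a change of -0.14 and an interval from -0.36 to 0.08. Sall4, a zinc finger factor of stem and germ cells, was 702 and 776, then 771 and 796, then 695 and 717, and Nr0b1 was 66.4 and 70.2, then 70.7 and 62.7, then 73.0 and 61.1. In both genes the EpiLC and day 4 libraries overlapped. Sox2 was 392 and 381 in EpiLCs, 503 and 452 at day 2 and 569.6 and 456 at day 4, so every PGCLC library lay above every EpiLC library. Its change was 0.30 ± 0.11 by day 2 (limma adjusted p = 0.0501, and under 0.05 in 7 of 14 alternatives, edgeR and DESeq2 at 0.0367 included) and 0.40 ± 0.11 by day 4 (adjusted p = 0.00828), and the latter did not pass without day 4 DMSO replicate 1 (0.24, adjusted p = 0.0758) or without EpiLC replicate 2 (0.38, adjusted p = 0.0646).

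The vector lines gave a second course, over 3 lines and up to day 6. From EpiLC to day 2, 7 of 8 genes passed, 3 higher and 4 lower, against 46.3% of the 15255 genes tested, 24.1% higher and 22.1% lower. With no variance trend 5 passed, and with quantile normalization 6, since Trim28 (-0.11, limma adjusted p = 0.248) and Zfp281 (-0.13, adjusted p = 0.129) did not and Pou5f1 did (0.23, adjusted p = 0.00741). Sox2 had the largest change of the 8: it was 280.2, 272 and 276 in EpiLCs (empty vector, clone 1, clone 2) and 814, 857 and 878 at day 2, a log2 change of 1.62 ± 0.07 (limma adjusted p = 3.36e-18). It then stayed between 815 and 861 at days 4 and 6. Sall4 went from 603, 569.6 and 583 to 889, 786 and 789 (0.49 ± 0.07, adjusted p = 2.56e-06). Its day 6 values were 875, 970.3 and 1002. The 2 courses were prepared with different kits and scaled separately, so no test was made between them.

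Nr0b1, a repressor of nuclear receptors encoded on the X, climbed over the whole course of the vector lines. It was 66.2, 69.9 and 76.6 in EpiLCs, 110.3, 125 and 120.5 at day 2, 142, 174 and 172 at day 4, and 217, 179 and 210.4 at day 6. Its changes were 0.73 ± 0.09, 0.45 ± 0.09 (limma adjusted p = 0.000427) and 0.31 ± 0.09 (adjusted p = 0.0314). The last step did not pass without the empty-vector line (0.16, adjusted p = 0.236) or without clone 2 (0.32, adjusted p = 0.203). In the dTAG13 experiment, with DMSO, no step passed. Xist in the vector lines was 114 to 130 in EpiLCs and 1.21 to 5.32 at later stages, and the medians of the other 568 tested X-linked genes were -0.06, -0.10 and -0.03 over the 3 steps. The part of Xist in the course of Nr0b1 was not tested.

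Lin28a fell in the vector lines from 1009.8, 883 and 913 in EpiLCs to 566, 469.7 and 494 at day 2 and 317, 287 and 319 at day 4, and was 306, 339 and 364 at day 6. Utf1 went from 898, 819 and 872 to 635, 611 and 564, and stood at 652, 645 and 623 at day 6. The first steps were -0.88 ± 0.08 and -0.52 ± 0.07 (limma adjusted p = 1.5e-10 and 6.4e-07). Over the other scalings the Utf1 step ran from -0.545 to -0.31, and it passed under 12 of 12 alternatives. Pou5f1 was 708, 759.7 and 712 in EpiLCs and 773, 763 and 772 at day 6, and passed at no step in the reported fit (log2 0.04 for the first). From day 2 to day 4, Lin28a (lower) and Nr0b1 (higher) passed, 2 of 8 genes against 23% of all. From day 4 to day 6, Trim28 and Nr0b1 passed, both higher, against 6.88% (3.49% as higher, 3.38% as lower).

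Trim28 and Zfp281 also fell at the first step in the vector lines. Trim28 was 685, 665 and 633 in EpiLCs, 649, 469.7 and 516 at day 2, 587, 599.9 and 662 at day 4 and 751, 733 and 742 at day 6. It fell by 0.29 ± 0.08 at the first step (limma adjusted p = 0.00415), which did not pass without clone 1 (-0.19, adjusted p = 0.22), and rose by 0.27 ± 0.08 at the last (adjusted p = 0.0405), which did not pass without clone 1 (0.26, adjusted p = 0.305) or clone 2 (0.32, adjusted p = 0.137). Zfp281 went from 439, 378 and 373 to 332, 356 and 297 (-0.27 ± 0.08, adjusted p = 0.0049, and 0.0664 without clone 2). Its day 6 values of 339, 342 and 341 lay within those of day 2.

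**Figure D1:**
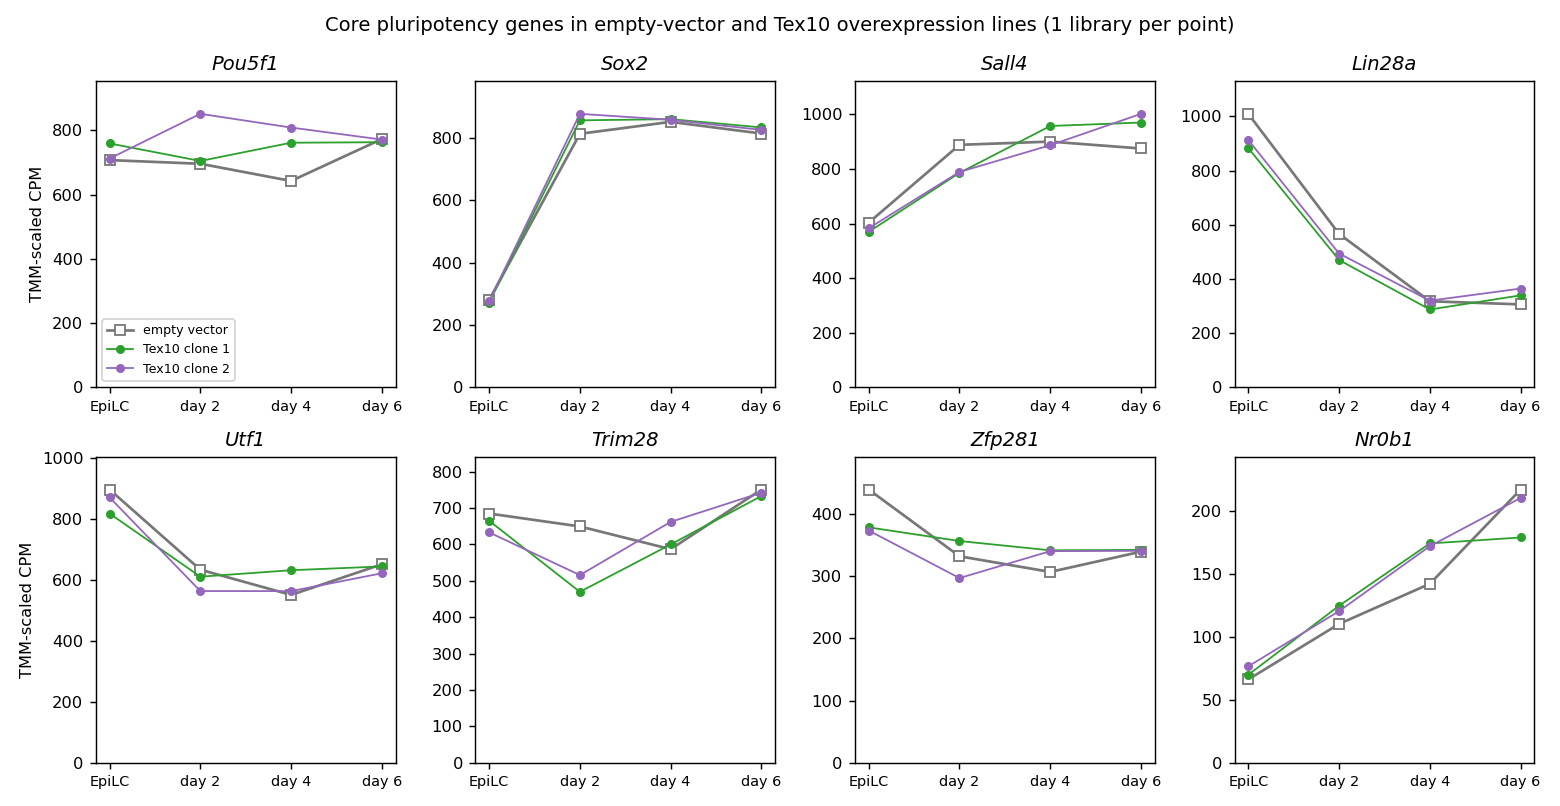
TMM-scaled CPM (vertical axes, from 0) of the 8 genes by stage in the empty-vector line (squares) and in Tex10 clones 1 and 2 (circles), 1 library per point. Sox2 steps up between EpiLC and day 2 in all 3 lines and Lin28a falls, while the lines cross each other in most panels.

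With dTAG13, all 8 genes were lower than with DMSO at day 2. At day 4, 7 of the 8 had lower means, all but Zfp281, and 5 passed the test. At day 2, 8 of 8 passed the test, all lower, where 33.6% of all genes passed and 19.9% passed as lower. At day 4, 5 of 8 passed, where 41.8% of all genes passed, 26% as lower and 15.8% as higher. The median log2 change of the 8 was -0.41 at day 2 and -0.30 at day 4, beside -0.09 and -0.13 for all genes tested. Scaling by median ratios placed the latter at -0.01 and -0.03. In bulk samples, fewer cells of a type and less RNA per cell cannot be told apart.

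Nr0b1 was the most reduced of the 8. At day 2 it was 70.7 and 62.7 with DMSO against 27.7 and 19.9 with dTAG13, and at day 4 it was 73.0 and 61.1 against 27.7 and 18.0. The groups did not overlap, and the dTAG13 cells held 35.7% and 34.0% of the DMSO level. The log2 changes were -1.46 ± 0.18 (limma adjusted p = 1.42e-06) and -1.54 ± 0.18 (adjusted p = 3.57e-07). The gene lies on the X, whose 566 other tested genes had a median change of -0.22 at day 2 and -0.17 at day 4 (autosomes -0.08 and -0.13). Of the 20 nearest tested genes, 10 on each side, 0 fell further on either day, and their medians were -0.37 and -0.29. Xist was higher in the dTAG13 libraries by log2 5.35 and 4.99, and the genes of chromosome 6, which holds none of the 8, had the lowest median of any chromosome (-0.34 and -0.24). Whether the DMSO and dTAG13 libraries differ in chromosome content was not tested, and neither was the part of this or of Xist in the change of Nr0b1 or of the other genes.

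Trim28 was 523 and 601 with DMSO against 363 and 308 with dTAG13 at day 2, and 618 and 702 against 300.2 and 272 at day 4. All 4 dTAG13 libraries lay below all 4 DMSO libraries, at 59.6% and 43.4% of the DMSO means. The log2 changes were -0.75 ± 0.11 (limma adjusted p = 3.13e-05) and -1.20 ± 0.11 (adjusted p = 2.6e-08). Zbtb45, a gene on the opposite strand that overlaps Trim28 in GENCODE M21, went from 40.5 and 42.1 to 15.4 and 19.8 at day 2 and from 46.0 and 52.5 to 23.0 and 19.4 at day 4. Whether counting used strand is not given in the sources used here, so reads of the pair cannot be told apart. The same holds for Pou5f1 with Gm19553, Sall4 with Gm14261, Lin28a with Gm13061 and, on the same strand, Sox2 with Sox2ot. In the dTAG13 experiment none of these 4 partners was above 20.5 TMM-scaled CPM in any library.

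Pou5f1 fell to a like level on both days. It was 339 and 302 with DMSO against 185 and 199 with dTAG13 at day 2, and 357 and 299.9 against 195 and 191 at day 4. All 4 dTAG13 libraries lay below every EpiLC and DMSO library. The log2 changes were -0.73 ± 0.11 (limma adjusted p = 1.54e-05) and -0.76 ± 0.11 (adjusted p = 5.42e-06), or 60.05% and 58.8% of the DMSO level. Pou5f1, Trim28 and Nr0b1 passed on both days under 14 of 14 alternatives, those that left out a library included.

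Sox2, the DNA partner of Oct4, was 503 and 452 against 358 and 328 at day 2, and 569.6 and 456 against 436 and 391 at day 4. Groups did not overlap on either day, and the changes were -0.48 ± 0.11 (limma adjusted p = 0.00237) and -0.30 ± 0.11 (adjusted p = 0.0341). The day 2 change passed under 14 of 14 alternatives and the day 4 change under 5 of 14. Without day 4 DMSO replicate 1 the latter was -0.14 (adjusted p = 0.299), and without day 4 dTAG13 replicate 2 it was -0.23 (adjusted p = 0.252).

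Lin28a was 291 and 303 against 229 and 238 at day 2, and 182 and 166 against 140.2 and 143 at day 4. The groups did not overlap, and the changes were -0.35 ± 0.10 (limma adjusted p = 0.012) and -0.29 ± 0.10 (adjusted p = 0.0247). They passed under 9 and 3 of 14 alternatives. Without 1 library the adjusted p reached 0.0889 at day 2 (dTAG13 replicate 1; 0.0849 without DMSO replicate 2). At day 4 it was 0.115 without dTAG13 replicate 1, 0.0831 without dTAG13 replicate 2 and 0.0941 without DMSO replicate 1.

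Sall4, Utf1 and Zfp281 passed at day 2 and not at day 4, although Sall4 passed at day 4 under quantile normalization (-0.25, limma adjusted p = 0.0405). At day 2, Sall4 was 771 and 796 against 608 and 623 (-0.35 ± 0.10, limma adjusted p = 0.00887), Utf1 was 279 and 266 against 209.5 and 218 (-0.35 ± 0.10, adjusted p = 0.0138), and Zfp281 was 249 and 246 against 198 and 206 (-0.29 ± 0.10, adjusted p = 0.0261). Each pair of groups was apart, and the 3 changes passed under 10, 6 and 3 of 14 alternatives. Leaving out any 1 of the 4 day 2 libraries ended the call of Zfp281, with adjusted p from 0.0779 to 0.147. Utf1 did not pass without DMSO replicate 1 (0.106) or either dTAG13 library (0.1 and 0.0535), nor Sall4 without DMSO replicate 2 (0.0702) or either dTAG13 library (0.0749 and 0.0515).

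At day 4, Sall4 was 695 and 717 against 627 and 606 (-0.19, limma adjusted p = 0.12), Utf1 was 274 and 237 against 219.7 and 247 (-0.13, adjusted p = 0.352) and Zfp281 was 261 and 239 against 241 and 268 (0.03, adjusted p = 0.843). Utf1 and Zfp281 libraries overlapped between treatments. The effect at day 4 minus that at day 2 passed for 0 of 8 genes (limma), against 1.25% of all genes (0.771% as higher and 0.482% as lower). Of the 8, 2 were under an unadjusted p of 0.05, as were 2013 of all 16605 genes: Trim28 (-0.46 ± 0.16, adjusted p = 0.215) and Zfp281 (0.32 ± 0.14, adjusted p = 0.351). edgeR and DESeq2 also called 0.

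**Figure D2:**
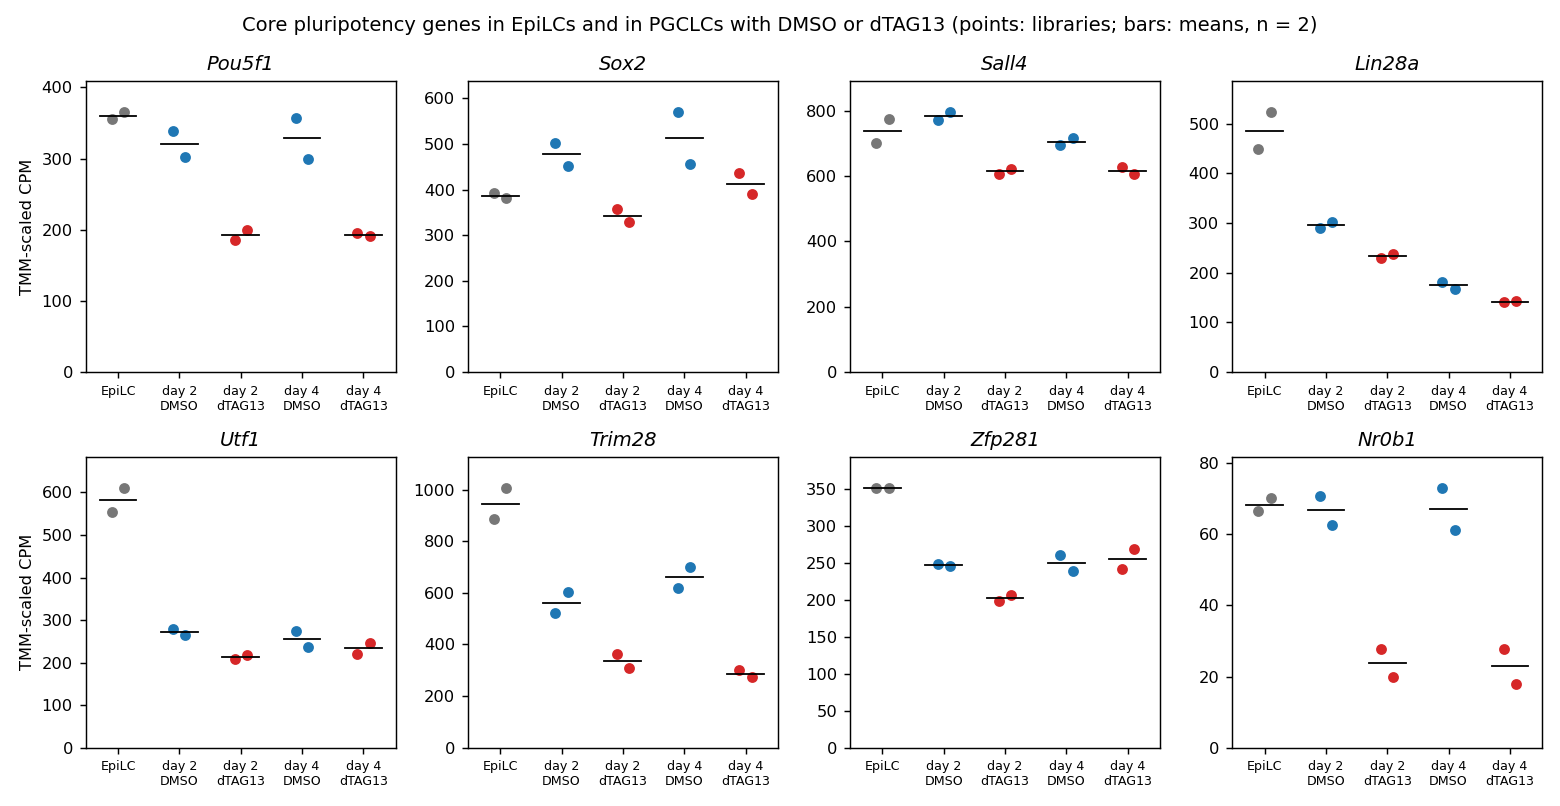
TMM-scaled CPM (vertical axes, from 0) of the 8 genes in each library of the dTAG13 experiment, with bars at the mean of 2. In Pou5f1, Sox2, Sall4, Trim28 and Nr0b1, all dTAG13 libraries stand below all DMSO libraries. Lin28a, Utf1, Trim28 and Zfp281 fall from EpiLC to day 2 with DMSO.

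Markers of other cell types differed between treatments. The summed level of 9 mesoderm and endoderm markers was 13.6 to 16.8 with DMSO and 36.7 to 45.6 with dTAG13 at day 2. There, 2 of 4 tested members were higher, against 13.7% of all genes. At day 4 the sum was 20.01 to 21.3 against 42.4 to 45.1. The sum of 4 trophoblast markers was 2.89 to 2.99 against 10.3 to 14.2 at day 2, and that of 6 fibroblast markers was 3.14 to 3.257 against 6.37 to 9.77. At day 4 the trophoblast sum was 1.40 to 1.99 against 8.80 to 12.6, and the fibroblast sum was 2.15 to 5.68 against 9.53 to 9.69. Among defining markers, Foxa2, Tpbpa, Col3a1, Lum and Neurog2 were at 0 in both DMSO libraries at day 2, and Col3a1 also in both dTAG13 libraries. At day 4, Tpbpa and Neurog2 were at 0 in both DMSO libraries, and T, a mesoderm marker, was at 0 in both dTAG13 libraries. The sum of 4 neural markers moved the other way, 58.1 to 59.7 against 25.6 to 27.8 at day 2 and 84.9 to 107 against 28.0 to 31.1 at day 4. So did that of 5 spermatogonial markers, 84.8 to 87.8 against 31.8 to 37.9 at day 2. At day 4 the spermatogonial sum was 166 to 177 against 40.7 to 52.5. On each day 3 of its 3 tested members were lower, against 19.9% and 26% of all genes. The sum of 6 PGCLC markers was 188 to 206 against 201 to 204 at day 2 and 157 to 174 against 225 to 237 at day 4. By gene, 1 of the 6 was higher and 2 were lower on each day. Of all genes, 13.7% were higher and 19.9% lower at day 2, and 15.8% and 26% at day 4. The median log2 changes of the 6 were -0.19 and -0.30. The sum and the median thus differed in direction at day 4, while the sums overlapped at day 2. The part of these markers in the fall of the 8 genes was not tested.

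The authors' deposited table, which holds its own comparisons, lists an FDR under 0.05 for fewer of the 8 genes. At day 2 it does so for Pou5f1 (0.00945) and Nr0b1 (2.94e-07), where it lists 2961 genes in all. At day 4 it does so for Pou5f1 (0.00384), Trim28 (0.00553) and Nr0b1 (3.88e-08), where it lists 4309 genes in all. For EpiLC to day 2 the authors' deposited table lists 1 of the 8, Utf1 (4.95e-05), among 2197 genes in all.

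Taken over the 4 stages together, overexpression of Tex10 moved none of the 8 genes past the threshold. Single stages were not tested here, and the authors' deposited comparison at day 2 lists Trim28, as given below. Across the 4 stages, 0 of 8 passed between clones and empty vector (limma), against 8.76% of all genes (4.54% as higher, 4.22% as lower), while 1 of 8 was under an unadjusted p of 0.05, as were 3359 of all 15255 genes; edgeR and DESeq2 called 0 and 0. Tex10 itself was higher by log2 1.47 ± 0.11. The 95% intervals of the 8 genes lay between -0.22 and 0.24. There was 1 empty-vector line, so the spread between control lines was not measured. The libraries of a line at the 4 stages were treated as separate samples, with no term for line. The intervals thus do not allow for repeated sampling of the same lines.

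Pou5f1 had the lowest unadjusted p (log2 0.12, interval 0.0095 to 0.23, limma adjusted p = 0.182). At day 4 it was 643 in the empty-vector library and 762 and 809 in the clones, and at day 6 it was 773 against 763 and 772. Clones were higher in 6 of 8 libraries. Nr0b1 was also higher in 6 of 8 (0.10 ± 0.07, adjusted p = 0.376), and Sox2 was 814 in the empty-vector library against 857 and 878 at day 2.

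Of the 8 genes, Trim28 had the widest range over stages in the mean log2 difference between clones and empty vector. At day 2 it was 649 in the empty-vector library and 469.7 and 516 in the clones, log2 differences of -0.47 and -0.33, and at day 4 it was 587 against 599.9 and 662. The authors' deposited table lists an FDR of 0.000145 for Trim28 at day 2. The difference of the overexpression effect between day 6 and EpiLC passed for 0 of 8 genes (limma; 0 also by edgeR and DESeq2), against 0.629% of all genes. Of the 8, 3 were under an unadjusted p of 0.05, as were 1516 of all 15255 genes: Lin28a (0.37 ± 0.11, adjusted p = 0.128), Sall4 (0.24 ± 0.09, adjusted p = 0.344) and Nr0b1 (-0.30 ± 0.15, adjusted p = 0.493). Lin28a was 1009.8 in the empty-vector EpiLCs against 883 and 913 in the clones, and 306 against 339 and 364 at day 6.

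**Figure D3:**
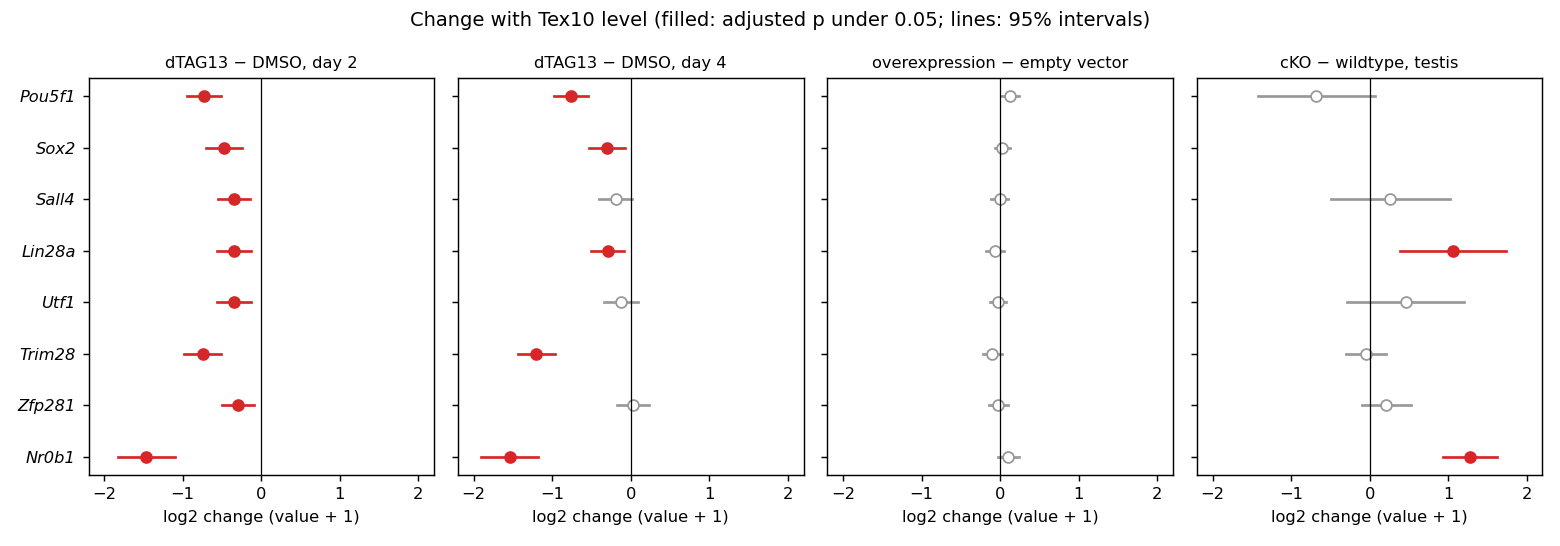
Log2 change of the 8 genes (horizontal axes, on log2 of value plus 1) in 4 comparisons, with 95% intervals; filled symbols passed at an adjusted p under 0.05. All 8 lie left of 0 at day 2 with dTAG13, none passes with overexpression, and Lin28a and Nr0b1 lie right of 0 in cKO testis.

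Partners and targets of Oct4 and Sox2 were lower with dTAG13. In a list of 15 such genes written with results of these data known, 13 were lower and 0 higher at day 2, and again 13 and 0 at day 4, where 19.9% and 26% of all genes were lower. The list's medians were -1.04 and -1.08, beside -0.09 and -0.13 for all genes tested, and -0.41 and -0.30 for the 8 core genes. The most reduced were Lefty2 and Lefty1, extracellular inhibitors of Nodal. Lefty2 was 266 and 222 with DMSO against 53.2 and 54.1 with dTAG13 at day 2 (log2 -2.16 ± 0.12, limma adjusted p = 3.71e-11), and 212 and 188.5 against 23.6 and 18.8 at day 4 (-3.19 ± 0.12). Lefty1 was 103 and 113 against 28.0 and 21.0 at day 2 (-2.1 ± 0.22), and 29.0 and 27.8 against 4.69 and 1.91 at day 4 (-2.85 ± 0.22). Rif1 and Zscan10 were the 2 that did not pass. Under the alternatives, 13 or 14 were lower at day 2 and 10 to 13 at day 4.

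Nanog lies on chromosome 6, whose genes had the lowest median change with dTAG13, as given with Nr0b1. Its dTAG13 values, given after they were seen, were 437.5 and 427 with DMSO against 159 and 143 with dTAG13 at day 2, and 683 and 493 against 203 and 159 at day 4. The changes were -1.51 ± 0.13 and -1.69 ± 0.13 (limma adjusted p = 1.7e-08 and 1.48e-09). In EpiLCs it was 103.9 and 105, so it rose along induction, by 2.04 ± 0.13 to day 2. In the empty-vector line it was 118.8 in EpiLCs and 574 at day 2, against 98.3 and 95.6, then 894 and 844, in the clones. With overexpression, Nanog (0.24 ± 0.08, limma adjusted p = 0.0449) and Esrrb (0.18 ± 0.05, adjusted p = 0.0182) were higher, against 4.54% of all genes. Zfp42 was lower (-0.37 ± 0.07, adjusted p = 0.00105), against 4.22%, so 3 of the 15 passed, against 8.76%. Those calls changed with the processing: 0 of the 15 passed with no filter on low values, and 0 were higher and 2 lower when column sums were made equal. Without clone 1 or without clone 2, 0 were higher and 1 was lower. The overexpression effect at day 6 minus that in EpiLCs, which rests on 1 empty-vector library per stage, passed for 3 of the 15, against 0.629% of all genes: Nanog (0.59 ± 0.10, adjusted p = 0.00179), Lefty1 (-0.73 ± 0.15, adjusted p = 0.00989) and Lefty2 (-0.51 ± 0.12, adjusted p = 0.0313).

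**Figure D4:**
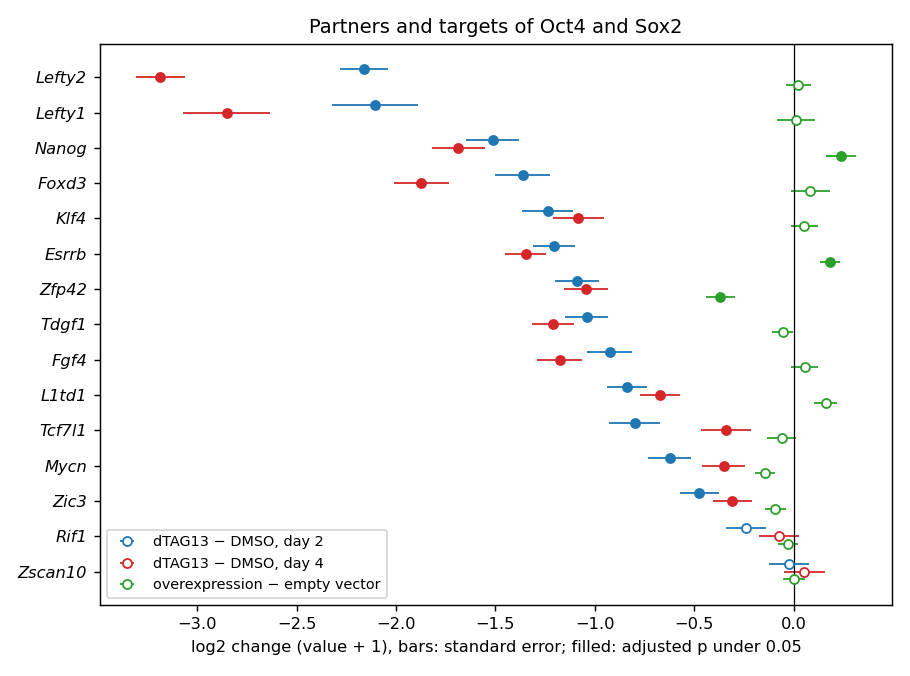
Log2 change (horizontal axis, on log2 of value plus 1, bars are standard errors) of the 15 partners and targets of Oct4 and Sox2 with dTAG13 at day 2 and day 4 and with overexpression. With dTAG13, 13 of 15 lie left of 0 past the threshold (filled), and the overexpression points lie near 0.

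Genes related to the 8 members did not move as a block. Of 12 tested paralogs, 5 were lower and 1 higher with dTAG13 at day 2, where 19.9% of all genes were lower and 13.7% higher. With edgeR 3 were lower and 2 higher, with DESeq2 3 and 1, and with quantile normalization 5 and 1. At day 4, 2 were lower and 2 higher, against 26% and 15.8%, so 4 of 12 passed where 41.8% of all genes did. Pou3f1, a POU factor of the epiblast, was higher on both days (1.39 ± 0.28 and 1.79 ± 0.28, limma adjusted p = 0.000654 and 2.73e-05). Sox3, a paralog of Sox2 at a mean of 2.19 with DMSO and 0.6 with dTAG13, fell by 0.98 ± 0.34 at day 2 (adjusted p = 0.0317). Sall1, a paralog of Sall4, fell by 0.88 ± 0.10 and 0.36 ± 0.10. Lin28b, named by the rule at day 4, was lower on both (-0.74 ± 0.11 and -0.90 ± 0.11), and Sall2 was higher at day 4 (0.93 ± 0.16). Near-identical paralogs can share reads, which the counts do not resolve.

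Around Trim28, of 10 partners in HP1-linked silencing, 4 were lower at day 2 (19.9% of all genes were), and 4 lower and 4 higher at day 4 (26% and 15.8% of all genes). At day 2, 3 partners were lower and 1 higher with median-ratio scaling, quantile normalization, edgeR or DESeq2. Zfp57, which guides Trim28 to imprinted loci, fell by 0.93 ± 0.11 and 1.07 ± 0.11 (limma adjusted p = 1.68e-06 and 1.21e-07), and Cbx1, an HP1 protein, fell by 0.79 ± 0.12 and 0.94 ± 0.12. Atrx and Daxx, which deposit histone H3.3, rose at day 4 by 0.43 ± 0.10 and 0.62 ± 0.12. Of 11 subunits of the NuRD complex, which Sall4 and Zfp281 bind, 2 were lower at day 2 (19.9% of all genes were), and 5 lower and 1 higher at day 4 (26% and 15.8% of all genes). With median-ratio scaling, quantile normalization, edgeR or DESeq2, 1 subunit was lower and 1 higher at day 2. At day 4 Hdac1 fell by 0.90 ± 0.24 and Mta1 by 0.59 ± 0.11, and Mta3 rose by 0.70 ± 0.12 (limma adjusted p = 0.00414, 0.000209 and 9.35e-05).

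In the Lin28 and let-7 axis, of 11 genes, 4 were lower and 3 higher at day 2, where 19.9% and 13.7% of all genes were. At day 4, 4 were lower and 4 higher, against 26% and 15.8%. Igf2bp2 and Igf2bp3, RNA-binding proteins whose mRNAs carry let-7 sites, fell by 1.41 ± 0.15 and 0.91 ± 0.11 at day 2 and by 1.33 ± 0.15 and 1.22 ± 0.11 at day 4. Tut7, which adds uridines to let-7 precursors, rose by 0.83 ± 0.11 and 0.84 ± 0.11 (limma adjusted p = 8.03e-06 and 3.65e-06). Hmga2 rose by 1.04 ± 0.13 at day 2. With overexpression, 2 of the 11 were lower and 1 higher, against 4.22% and 4.54% of all genes: Hmga2 (-0.65 ± 0.12, adjusted p = 0.000435), Lin28b (-0.37 ± 0.07, adjusted p = 0.00049) and Igf2bp3 (0.21 ± 0.06, adjusted p = 0.0248).

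Patterns most like those of the 8 genes were sought among 10940 genes, by the lower of the Pearson r over the 10 dTAG13 libraries and over the 12 overexpression libraries. Points share libraries and depth, so these values are descriptions. Lin28a was most like Bend3 (lower r 0.973), Bcl11a and Gm10451, and Utf1 most like Ptbp1 (0.959), Eif3j2 and Foxh1. Sox2 was most like Helb (0.946), Slc35g1 and Zfp42-ps1, and Nr0b1 most like Gli2 (0.934), Epop and Kdm5b. Trim28 had Cherp (0.917), Pnma5 and Afg3l1, and Sall4 had Epop (0.899), Snx9 and Zswim1. Zfp281 had Ywhab (0.862), Tfdp2 and Lrp2, and Pou5f1 had Ecsit (0.838), Sumf2 and Mrps30. Among the 8 themselves, Pou5f1 and Nr0b1 had r = 0.957 in the dTAG13 table and 0.315 in the overexpression table. Lin28a and Nr0b1 had 0.544 and -0.951, so this pair differed in sign between the experiments. Several other pairs did so too, among them Sall4 and Lin28a (0.615 and -0.917) and Utf1 and Nr0b1 (0.566 and -0.747).

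In whole testis, a tissue of germ cells at many stages with Sertoli and Leydig cells, 2 of 7 genes passed between cKO and wildtype, both higher, against 29.1% of the 20658 genes tested and 16.1% that passed as higher. Nr0b1 was 22.4 and 27.5 in wildtype against 65.6 and 57.4 in cKO, with no overlap (1.27 ± 0.16, limma adjusted p = 0.000139). Lin28a was 2.23 and 3.77 against 7.1 and 7.24 (1.06 ± 0.32, adjusted p = 0.0223). These Lin28a values rest on few reads, 13 and 24 in wildtype and 51 and 57 in cKO. Nr0b1 is expressed in Sertoli and Leydig cells, and Lin28a marks undifferentiated spermatogonia.

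Cell type markers moved with these values. The sum of 4 Sertoli markers was 161 to 184 in wildtype and 429.7 to 509.7 in cKO, with 4 of 4 higher, and that of 4 Leydig markers was 197 to 307 against 524 to 875.5, with 4 of 4 higher. Fibroblast markers were 24.1 to 24.5 against 71.2 to 105, with 4 of 6 higher. Macrophage markers were 30.1 to 34.9 against 53.4 to 68.8, with 2 of 3 tested higher. Spermatogonial markers were 55.7 to 61.1 against 89.2 to 91.5, with 3 of 5 higher, and spermatid markers were 9341 to 11365 against 7016 to 7495, with 3 of 4 lower. Of all genes tested, 16.1% passed as higher and 13.1% as lower. The median change was 0.57 over 718 other X-linked genes and 0.0028 on autosomes. The part of cell composition in the changes of Nr0b1 and Lin28a was not tested. Lin28a passed under 7 of 13 alternatives and not without wildtype replicate 1 (0.78, limma adjusted p = 0.0988), cKO replicate 1 (1.07, 0.0912) or cKO replicate 2 (1.05, 0.0817); Nr0b1 passed under 13 of 13.

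Of the other genes in testis, Trim28 was 272 and 312 in wildtype against 292 and 274 in cKO, and Zfp281 was 42.5 and 43.9 against 54.6 and 46.3. Neither passed (limma adjusted p = 0.822 and 0.295). Pou5f1 was 2.74 and 3.14 against 1.81 and 1.14 (adjusted p = 0.158), Utf1 was 2.4 and 1.57 against 3.48 and 2.67, and Sall4 was 2.57 and 3.14 against 2.51 and 5.08. These low levels rest on few reads: 1 read was worth 0.127 to 0.171 in these libraries.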

How the data were processed

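Per the labels, RNA was taken in Trizol, and libraries were made with the Ovation Mouse RNA-seq kit for the dTAG13 and testis samples and the Universal Plus mRNA-Seq kit for the overexpression samples. The submitters' processing notes name Bowtie2 2.3.4.3, SAMtools 1.9, HTSeq 0.11.2 and edgeR 3.26.8 with mm10, with no role or order given. The deposited values are a signal that the authors scaled by TMM. Within each library they were whole multiples of 1 step for 100.0% of values (tolerance 0.01), and are read as TMM-scaled CPM. The tables also hold the authors' log2 fold changes and p-values with FDR, deposited per the file headers, from a test that is not given in the sources used here.

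Values were tested as log2(value + 1) with limma 3.58.1 (trend) in R 4.3.3, all libraries of a table in 1 fit, over genes with a mean of at least 1. p-values were adjusted by Benjamini-Hochberg over all genes tested, with a threshold of 0.05. Overexpression was tested with stage as a covariate, and the steps of the vector lines with line as a covariate. edgeR 4.0.16 and DESeq2 1.42.0 on recovered reads, other scalings, pseudocounts and filters, and leaving out libraries were alternatives; making column sums equal was added after seeing the data. Intervals cover the spread between libraries only.

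Positions and exon lengths are from GENCODE M21 and promoters from RefSeq GRCm38.p6, the build of mm10. The 8 genes, the related lists and the tests were chosen with earlier results of these data known. The text names the 8 genes, at most 2 called genes per list and direction with the largest change, and the 3 genes most like each member. Nanog's dTAG13 values, Lin28b at day 2, Rif1 and Zscan10 are given beyond this rule, after their values were seen. Tex10, Xist, markers of cell types and genes that overlap a member are named as well.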

Additional observations from a re-analysis of the deposited data

Results flagged for a closer look

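For each of the 8 genes, both Tex10 clones lay above the empty-vector library at some stages and below it at others. The range of the mean log2 difference over the 4 stages was 0.502 for Trim28 (both clones higher at day 4; lower in EpiLCs and at days 2 and 6). It was 0.443 for Nr0b1 and 0.299 for Pou5f1 (both higher in EpiLCs and at days 2 and 4; lower at day 6). It was 0.433 for Lin28a and 0.346 for Sall4 (both higher at day 6; lower in EpiLCs and at day 2). It was 0.376 for Zfp281 (both higher at days 4 and 6; lower in EpiLCs), 0.226 for Utf1 (both higher at day 4; lower at the other stages) and 0.125 for Sox2 (both higher at days 2, 4 and 6; lower in EpiLCs). These differences between stages were not tested, apart from day 6 against EpiLC, where 0 of 8 passed (limma; 3 of 8, and 1516 of all 15255 genes, under an unadjusted p of 0.05). Each stage has 1 empty-vector library, which both clones share. Of 32 differences between clones and empty vector by gene and stage, 32 kept their sign under median-ratio scaling and 28 when column sums were made equal.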

How the results depend on the processing

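With dTAG13 at day 2, 8 genes passed in the reported fit, 5 with edgeR, 5 with DESeq2 and 4 with no variance trend; leaving out 1 library gave 4 to 6. At day 4, 5 passed, and 3 with no filter on low values, median-ratio scaling, edgeR, DESeq2, no variance trend, column sums made equal, or only the groups compared; leaving out 1 library gave 3 to 5. For day 2 to day 4 in the vector lines, 2 passed, 4 with quantile normalization or sums made equal, and 2 to 4 without 1 line. For day 4 to day 6, 2 passed, 1 with a pseudocount of 0.1 or quantile normalization, 0 with no filter, no variance trend or no replicate block, and 0 to 2 without 1 line. In testis 2 passed, 1 with DESeq2 or no variance trend, and 1 to 2 without 1 library. For EpiLC to day 2 in the vector lines, 7 passed, and 5 to 7 over the alternatives; for EpiLC to day 4, 5 passed, and 4 to 5. Under quantile normalization, 2 values turned direction and passed: Sall4 from EpiLC to day 4 (-0.06 to 0.35, limma adjusted p = 0.00888) and Trim28 in testis (-0.04 to 0.31, adjusted p = 0.0451). The causes were not tested.

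Replicate numbers come with no stated pairing, and with 2 per group were not taken as pairs (correlations of deviations from -0.128 to 0.118). With a replicate block, 8 and 5 genes passed for dTAG13 at days 2 and 4, 5 for EpiLC to day 2 (Sox2 added, adjusted p = 0.0291 with limma), 5 for EpiLC to day 4 (5 also with the numbers crossed) and 2 in testis. Of 1283 values of single genes refitted, 78 lost and 17 gained the call and 2 turned direction, as given; 67 that passed in neither fit changed sign. The overexpression difference between stages without 1 clone gave a value with no test.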

Other observations

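With dTAG13, the tested genes of chromosome 6 had the lowest median change of any chromosome, -0.34 over 817 genes at day 2 and -0.24 at day 4, with 293 and 252 of them lower. Medians of the other autosomes spanned -0.13 to 0.01 (day 2) and -0.20 to -0.03 (day 4). This was looked at after the values were seen and was not tested. None of the 8 core genes lies on chromosome 6, and Nanog does.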
